A study of Homo sapiens with 37 samples.

Results

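Control cultures of the fetal lung fibroblast strain WI-38 were compared with each other: the 2 libraries labelled Dox- Repeat, controls of a repeated doxorubicin experiment, and the 2 labelled IR-, controls of an irradiation experiment. They are 4 of the 37 libraries of a study of cellular senescence, and were taken by label, as control libraries of the same strain, doubling level and kind of library. The pair was put forward because earlier results of these data showed a strong difference in cell-cycle genes, so values of cell-cycle lists and genes between these groups describe that choice and are no independent evidence of it. In both groups the labels give WI-38 at population doubling level 25, the treatment as control, and growth in DMEM with 10% serum. The names of the deposited count columns add that the Dox- Repeat cells were DMSO controls, and name the IR- cells only as controls of irradiation. Neither group carries a transgene, WI-38 is a strain of normal diploid cells from 1 donor, and the labels leave unsaid whether the 2 libraries of a group came from separate cultures. The p-values below therefore cover only how far libraries of the same group vary, and that variation may be technical. Its size was estimated over 12 libraries together. These include WI-38 cells given 2 µg/mL doxorubicin for 24 h, cells given 10 Gy of ionizing radiation and cells at level 53 to 55. For reference, 2 libraries labelled Proliferating Control, also control WI-38 at level 25 and described with the same medium, were compared with both Dox- Repeat and IR-. In the study each control served its own treated cells, and the comparison here asks how alike the controls were. RNA came from bulk cultures, so fewer dividing cells and less RNA per dividing cell cannot be told apart.

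Normal fibroblasts divide until they are crowded or lose growth factors and then rest reversibly, a state called quiescence, which differs from the lasting arrest of senescence. Entry into S phase needs the release of E2F factors from the pocket proteins of the RB family, and E2F then switches on the genes that copy DNA. Later, the MuvB complex with B-MYB and FOXM1 switches on the genes of mitosis, many of which carry a cell cycle homology region near their start, while in resting cells MuvB, p130 and E2F4 form the repressive DREAM complex. Transcripts of mitosis therefore follow how many cells of a culture are cycling more closely than most others.

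The 4 libraries held 278729999 to 339671357 counts, and the 2 of Proliferating Control 205854972 and 305742930. Replicates of IR- were close to each other, with a Pearson r of log2 CPM of 0.996 over 15777 genes, and so were those of Proliferating Control (0.998), but the Dox- Repeat libraries were less alike (0.981). Dox- Repeat 2 was closer to the Proliferating Control libraries (0.992 and 0.994) than to Dox- Repeat 1, which stands apart. Counts of members are therefore given below also with a library left out for most lists described at length. Mitochondrial genes held 3.58% and 5.11% of the counts in Dox- Repeat, 6.31% and 6.99% in IR- and 3.21% and 4.41% in Proliferating Control. IR- 1 had at least 1 count for 43465 genes, against 34412 to 37952 in the other 5 control libraries. Markers of cell type were checked against the label. COL1A2 (ENSG00000164692), a collagen chain, stood at 508 to 789.7 CPM and VIM† (ENSG00000026025), the intermediate filament of mesenchymal cells, at 4002 to 5571 CPM in the 6 controls. The leukocyte gene PTPRC (ENSG00000081237) lay between 0.0404 and 0.651 CPM, the epithelial gene CDH1† (ENSG00000039068) between 0.0318 and 0.197 CPM and the endothelial gene CDH5 (ENSG00000179776) between 0 and 0.0578 CPM, where the summed lists had 27.5 to 39.6, 21.3 to 52.1 and 62.4 to 158.8 CPM. Nearly all of the endothelial sum was TEK (ENSG00000120156), the angiopoietin receptor, at 93.3 and 140.5 CPM in Dox- Repeat, 58.8 and 58.4 CPM in IR- and 156 and 156 CPM in Proliferating Control. Levels are CPM, the count of a gene scaled to a common library total. A dagger marks a gene whose exons overlap or repeat those of another gene, so that its reads cannot be assigned with certainty.

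Genes of cell division, for which the pair was chosen, were higher in IR-, and the IR- libraries were lower in genes of interferon response, inflammatory secretion, the lysosome and resident fibroblasts. The 4 genes put forward as markers of this difference show its scale, and since they were picked for it their values are a description. MKI67 (ENSG00000148773) encodes Ki-67, which coats mitotic chromosomes, and stood at 28.4 and 43.9 CPM in Dox- Repeat and 189 and 213 CPM in IR-. It was 5.56-fold lower in Dox- Repeat. BIRC5 (ENSG00000089685), survivin of the chromosomal passenger complex, stood at 3.97 and 5.43 against 39.002 and 41.3 CPM, 8.54-fold lower. The antiproliferative gene BTG2 (ENSG00000159388) stood at 51.3 and 57.2 against 22.8 and 26.7 CPM, 2.19-fold higher in Dox- Repeat. ADH1B† (ENSG00000196616), an alcohol dehydrogenase of resident fibroblasts, stood at 19.6 and 31.1 against 4.85 and 3.33 CPM, 6.196-fold higher. For each of the 4, both libraries of one group lay beyond both of the other. Proliferating Control stood with Dox- Repeat and not with IR-, at 46.5 and 38.01 CPM for MKI67, 3.98 and 4.596 for BIRC5, 60.6 and 59.995 for BTG2 and 32.2 and 31.7 for ADH1B.

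Over all genes, edgeR's quasi-likelihood test called 1809 of 33612 tested genes higher and 1387 lower in Dox- Repeat than in IR- (adjusted p below 0.05), which is 5.38% and 4.13%, or 9.51% together. Of these, 1334 and 847 differed by at least 2-fold. These percentages are the background against which each list below should be read. With 1 of the 4 libraries left out, 664 to 1376 were called higher and 428 to 1013 lower, fewest without IR- 2. A group then held 1 library, which was taken to vary like the others. Fold changes are log2 of Dox- Repeat over IR-, ± the standard error. The median over all genes was 0.02.

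Of the 26 pathway lists, mitosis had the most called members. Of 46 genes, 43 were lower in Dox- Repeat and 0 higher, 93.5% beside a background of 4.13%, from which nothing is read since the pair was chosen for such genes. The list had a median of -2.54. All 46 fitted values lay below 0, and the lower calls numbered 39 to 44 with 1 library left out. The list summed to 423 and 567 CPM in Dox- Repeat and to 2392 and 2427 CPM in IR-. MYBL2 (ENSG00000101057), the B-MYB partner of MuvB and the gene with the lowest fold change of those named, stood at 1.02 and 1.12 CPM in Dox- Repeat and 16.8 and 19.3 CPM in IR- (-4.07 ± 0.61). CDC20 (ENSG00000117399), which activates the anaphase-promoting complex, stood at 1.57 and 2.01 against 23.6 and 30.3 CPM (-3.91 ± 0.26). The separation was of the same kind for FOXM1† (ENSG00000111206), the activator of late cell-cycle genes, at 4.28 and 4.45 against 36.3 and 44.3 CPM (-3.21 ± 0.23). In none of these 3 genes did the groups overlap, and replicates lay close together beside the gap between the groups.

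The kinase pair that drives cells into mitosis was lower too. CCNB1 (ENSG00000134057), cyclin B1, stood at 15.8 and 17.4 against 96.5 and 100.3 CPM (-2.57 ± 0.20). Its kinase CDK1 (ENSG00000170312) stood at 0.608 and 1.49 against 5.99 and 5.94 CPM (-2.51 ± 0.501). The call of CDK1 ended without Dox- Repeat 1 (-2.51 became -2.00, edgeR q = 0.0513). CCNA2† (ENSG00000145386), cyclin A2 (-2.15 ± 0.24), TOP2A (ENSG00000131747), which untangles chromosomes (-1.81 ± 0.33), PTTG1 (ENSG00000164611), securin (-2.87 ± 0.23), NEK2 (ENSG00000117650), a centrosome kinase (-3.49 ± 0.40), and CDCA8 (ENSG00000134690), the borealin subunit beside survivin (-3.30 ± 0.29), were called lower as well. Members that did not pass were SPC24† (ENSG00000161888) of the kinetochore (-0.65), the RhoA activator ECT2 (ENSG00000114346) (-0.80) and INCENP (ENSG00000149503) of the passenger complex (-0.83). Within Dox- Repeat, 40 of the 46 genes were lower in library 1 than in library 2, with a median log2 ratio of library 2 over 1 of 0.40 (on CPM + 0.5), against 0.03 in IR- and -0.00 in Proliferating Control.

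**Figure D1:**
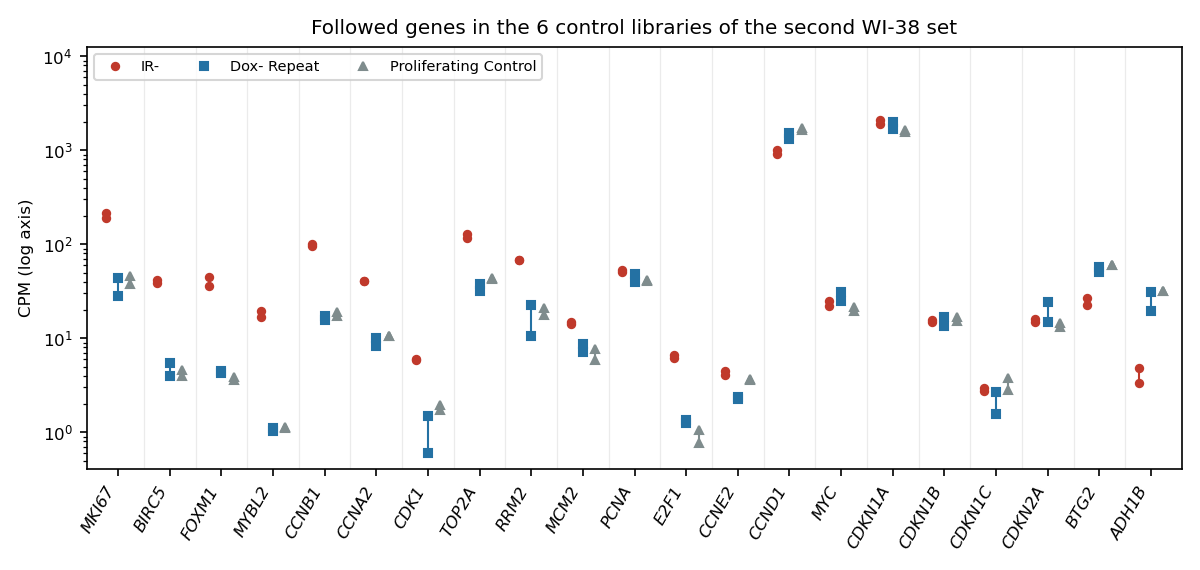
Level of 21 followed genes in CPM (log axis) in the IR- (red circles), Dox- Repeat (blue squares) and Proliferating Control libraries (grey triangles), with a line joining the 2 libraries of a group. From MKI67 to MCM2 and for E2F1 the IR- libraries lie well above the other 4, while CDKN1A, CDKN1B, CDKN1C, CDKN2A, MYC and PCNA lie closer together in the 6 libraries; levels are not per length and are to be read within a gene.

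The promoters of the mitosis and replication lists hold the same 3 motifs in different shares. To show the motifs in place, 4 promoters of followed genes are printed. MKI67, TOP2A and CDK1 are of the mitosis list and E2F1 is of the E2F list, and none is of the replication list. Sequences are from RefSeq, GRCh38.p14, the 250 bases before the start of transcription, 5′ to 3′ along the gene. Capitals mark matches, on either strand, to 3 motifs. The cell cycle homology region was searched as TTTGAA and as TTCGAA. The CCAAT box was searched by the letters of its name. For E2F the letters were TTCCCGC, with TTGGCGC, with TTCGCGC and with TTGCCGC as other forms. MKI67 holds the homology region 47 and 29 bases before the start, the second sharing 1 base with a CCAAT box. TOP2A holds it 194 and 151 bases before, with 4 CCAAT boxes, and CDK1 161 bases before, with a CCAAT box and E2F letters. E2F1 holds no homology region but E2F letters 33 and 19 bases before its start. Among followed genes not printed, CCNB1 and CCNA2 of the mitosis list hold CCAAT letters but no match to the homology region. PCNA of the replication list holds E2F letters 59 bases before its start.
MKI67, chr10:128126424-128126673, minus strand: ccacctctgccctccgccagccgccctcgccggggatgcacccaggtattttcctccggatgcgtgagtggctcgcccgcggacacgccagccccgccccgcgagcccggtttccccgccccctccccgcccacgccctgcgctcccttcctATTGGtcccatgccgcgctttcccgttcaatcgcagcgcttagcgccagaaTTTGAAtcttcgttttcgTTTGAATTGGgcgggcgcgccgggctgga
TOP2A, chr17:40417897-40418146, minus strand: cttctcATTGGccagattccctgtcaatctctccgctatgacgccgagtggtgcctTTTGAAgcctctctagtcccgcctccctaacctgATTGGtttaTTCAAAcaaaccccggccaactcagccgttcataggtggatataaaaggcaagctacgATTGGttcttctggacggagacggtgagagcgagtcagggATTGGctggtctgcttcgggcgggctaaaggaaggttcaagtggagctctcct
CDK1, chr10:60778081-60778330, plus strand: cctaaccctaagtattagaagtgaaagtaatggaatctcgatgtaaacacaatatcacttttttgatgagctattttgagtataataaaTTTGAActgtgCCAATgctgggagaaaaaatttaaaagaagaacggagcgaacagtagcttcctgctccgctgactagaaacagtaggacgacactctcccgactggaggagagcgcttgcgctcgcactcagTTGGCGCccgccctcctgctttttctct
E2F1, chr20:33686386-33686635, minus strand: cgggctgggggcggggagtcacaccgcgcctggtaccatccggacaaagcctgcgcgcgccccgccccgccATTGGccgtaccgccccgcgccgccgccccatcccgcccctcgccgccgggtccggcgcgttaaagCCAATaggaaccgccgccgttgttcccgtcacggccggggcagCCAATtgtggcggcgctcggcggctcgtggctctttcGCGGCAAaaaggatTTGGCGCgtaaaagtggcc

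Promoters from 250 bases before to 50 after the start were found for 40 of the 46 mitosis genes and 35 of the 40 replication genes. The homology region matched in 30 of the 40 mitosis promoters (75%), 2 of the 35 replication promoters (5.71%) and 4539 of all 27305 promoters of the table (16.6%). E2F letters matched in 12 (30%), 28 (80%) and 3564 (13.1%) of the same sets. A CCAAT box matched in 33 (82.5%), 20 (57.1%) and 9747 (35.7%). Of the 25 promoters of growth restraint genes, which were not lower as a list, 1 held the homology region (4%), 5 E2F letters (20%) and 11 a CCAAT box (44%). A match shows only that these letters are present, and binding was not measured.

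**Figure D2:**
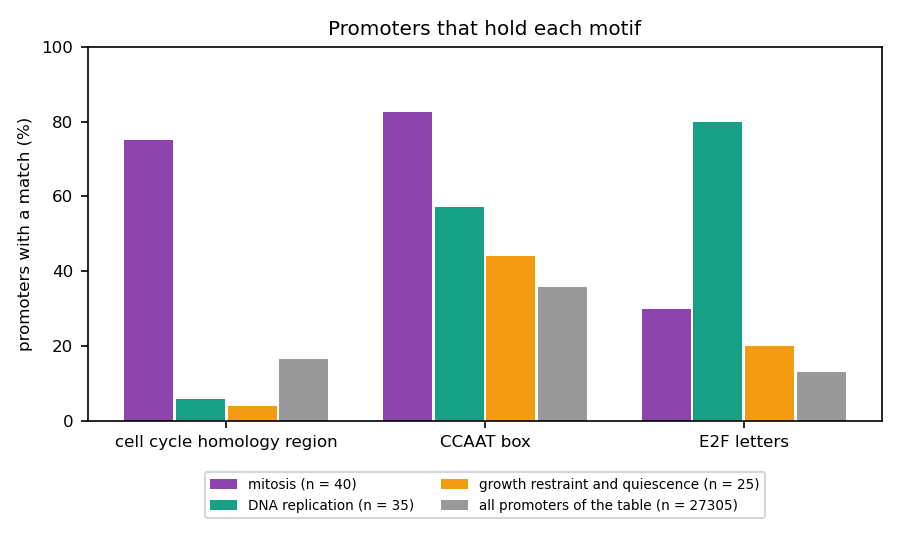
Share of promoters (%) with a match to each of 3 motifs, for the mitosis (n = 40), DNA replication (n = 35) and growth restraint lists (n = 25) and all promoters of the RefSeq table (n = 27305). The homology region is most frequent in mitosis promoters (75%) and E2F letters in replication promoters (80%).

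Genes that copy DNA were lower by less. Of 40 replication genes 23 were lower in Dox- Repeat and 0 higher, with a median of -0.95, and 13 to 15 were lower with any 1 of the 4 libraries left out. The summed level was 469 and 468 CPM in Dox- Repeat and 872 and 959 CPM in IR-. TK1 (ENSG00000167900), the salvage enzyme thymidine kinase, stood out at 5.19 and 5.104 against 60.2 and 75.8 CPM (-3.72 ± 0.21), and both its Dox- Repeat libraries lay far below both IR- libraries. The helicase subunit GINS2† (ENSG00000131153) (-2.25 ± 0.23), the thymidylate synthase TYMS† (ENSG00000176890) (-1.61 ± 0.21) and RRM2† (ENSG00000171848), the regulated subunit of ribonucleotide reductase (-2.04 ± 0.39), were called lower. RRM2 was uneven within Dox- Repeat, at 10.6 and 22.5 CPM, but both values lay below the 68.6 and 67.9 CPM of IR-. The sliding clamp PCNA (ENSG00000132646) stood at 47.8 and 40.1 against 51.3 and 53.6 CPM (-0.26 ± 0.17, edgeR q = 0.3796). The helicase subunit MCM2† (ENSG00000073111) stood at 8.79 and 7.19 against 14.05 and 14.98 CPM (-0.86 ± 0.27, edgeR q = 0.061003). Neither passed. For MCM2 the test did pass in 7 of the alternatives, among them a fit of the 2 groups alone (edgeR q = 0.0227) and DESeq2's Wald test (q = 0.0158).

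Genes that accompany S phase were lower in Dox- Repeat as well. Homologous recombination and Fanconi genes had 13 of 21 lower and 0 higher (median -1.21, 7 to 10 lower with 1 library left out, and under 10 without any but Dox- Repeat 2), with the helicase BRIP1 (ENSG00000136492) at 5.06 and 6.13 against 19.8 and 19.7 CPM (-1.82 ± 0.27). The polymerase POLQ (ENSG00000051341) (-2.27 ± 0.36) and the crosslink repair gene FANCI† (ENSG00000140525) (-1.49 ± 0.19) were lower with it. Of 18 replication-dependent histone genes tested, 11 were lower and 0 higher (median -1.27), and 8 to 11 were lower with 1 library left out. The linker histone H1-5 (ENSG00000184357) stood at 6.21 and 5.49 against 44.99 and 55.5 CPM (-3.10 ± 0.23) and H1-3 (ENSG00000124575) at 9.88 and 9.66 against 59.8 and 65.2 CPM (-2.68 ± 0.30). The histone list names 45 genes, of which only 18 were matched. These summed to 217 and 206 CPM in Dox- Repeat and 513 and 579 CPM in IR-. In the irradiated cells (IR+) the sum was 382 and 464 CPM and in Replicative Exhaustion 312 and 390 CPM, above Dox- Repeat in both. Of 24 lamina and chromatin genes, 13 were lower (median -0.83, 9 to 10 with 1 library left out), led by the variant histone H2AZ1† (ENSG00000164032) (-1.497 ± 0.17), the histone chaperone ASF1B† (ENSG00000105011) (-2.79 ± 0.33) and lamin B2, LMNB2† (ENSG00000176619) (-1.60 ± 0.20). The exception was HMGA2† (ENSG00000149948), an architectural chromatin protein, at 136 and 160.3 against 69.4 and 65.6 CPM (1.14 ± 0.30, edgeR q = 0.0303), whose call ended without Dox- Repeat 2, IR- 1 or IR- 2 (edgeR q = 0.0953 to 0.142).

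**Figure D3:**
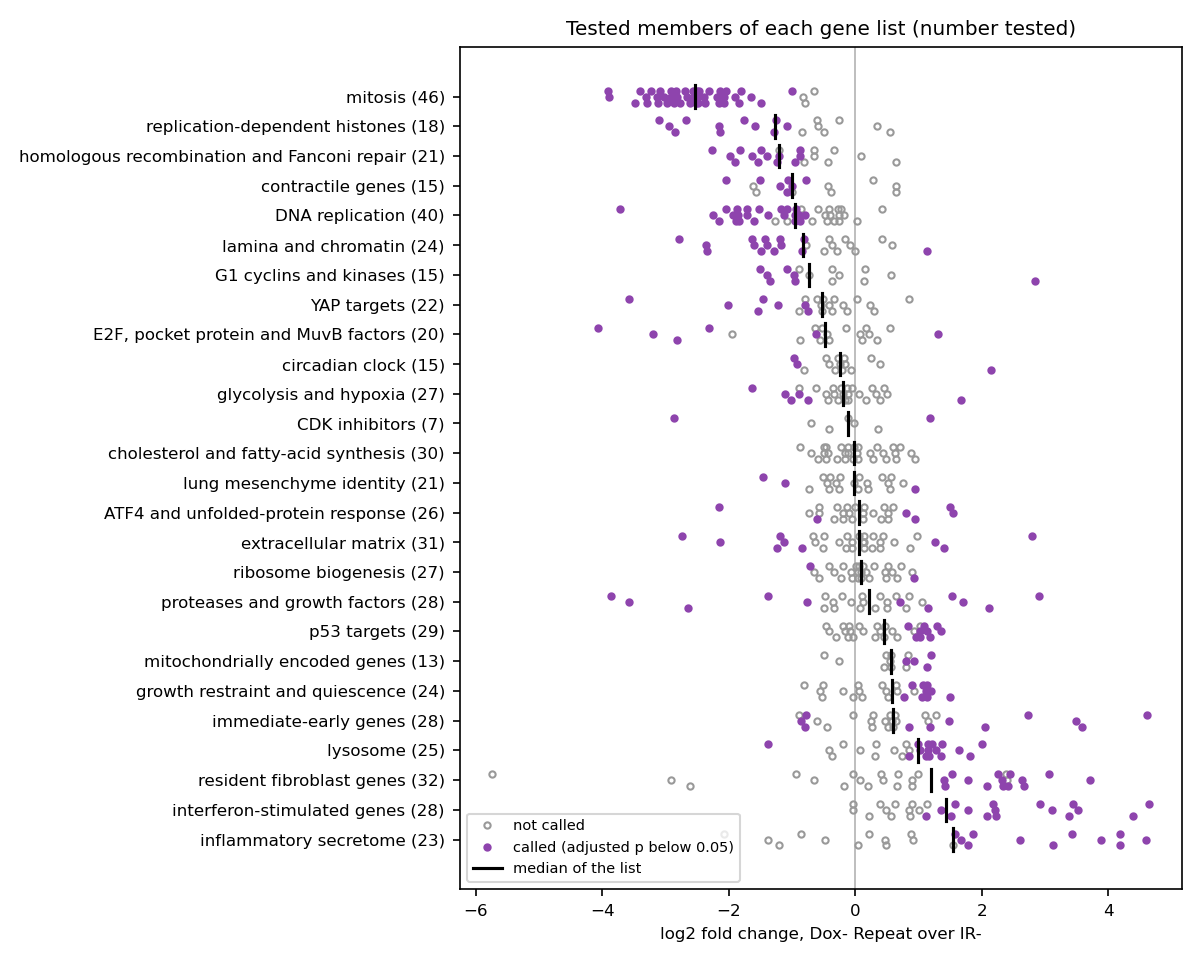
Log2 fold change of Dox- Repeat over IR- for every tested member of 26 gene lists (number tested in brackets). Filled points passed the adjusted p of 0.05, open points did not, and black bars are list medians, from -2.54 for mitosis to 1.55 for the inflammatory secretome.

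The controllers of G1 did not move as a block. Of 15 G1 cyclins and kinases 6 were lower and 1 higher, and the list held members on both sides of 0. Without Dox- Repeat 1, IR- 1 or IR- 2 in turn 3 were lower. CDK2† (ENSG00000123374), the kinase of S-phase entry, stood at 12.4 and 12.5 against 30.4 and 34.9 CPM (-1.39 ± 0.21, edgeR q = 0.000703), and the kinase CDC7 (ENSG00000097046), which fires replication origins (-1.51 ± 0.27), and the CDK-binding CKS1B (ENSG00000173207) (-1.07 ± 0.20) were lower with it. Cyclin D2, CCND2† (ENSG00000118971), went the other way, at 32.1 and 41.8 against 6.12 and 4.15 CPM (2.85 ± 0.23, edgeR q = 7.72e-06), with no overlap. Cyclin D1, CCND1† (ENSG00000110092), the first cyclin that growth factors induce, stood at 1537 and 1326 against 914 and 1011 CPM (0.57 ± 0.19, edgeR q = 0.0785) and passed only in a fit of the 3 control groups (edgeR q = 0.0163) and of all 37 libraries (edgeR q = 0.00123). Cyclin E2, CCNE2† (ENSG00000175305), had 2.24 and 2.39 against 4.49 and 4.08 CPM (-0.89 ± 0.28, edgeR q = 0.0589), and 5 alternatives called it lower.

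Of 20 E2F, pocket protein and MuvB genes, 5 were lower and 1 higher, and 3 were lower without Dox- Repeat 1 and without IR- 1. E2F1 (ENSG00000101412), an activating E2F that is itself an E2F target, stood at 1.35 and 1.24 against 6.23 and 6.63 CPM (-2.31 ± 0.34, edgeR q = 0.000708), while E2F7 (ENSG00000165891), a repressive E2F, stood at 44.1 and 51.6 against 19.1 and 19.3 CPM (1.32 ± 0.25, edgeR q = 0.00367). The CDK inhibitors, which hold cells in arrest, came next. CDKN1A† (ENSG00000124762), p21, stood at 1683 and 1983 against 1885 and 2088 CPM (-0.12 ± 0.21, edgeR q = 0.791), with overlapping groups. CDKN1B (ENSG00000111276), p27, the inhibitor tied to quiescence, stood at 16.6 and 13.4 against 14.8 and 15.7 CPM (-0.02 ± 0.25, edgeR q = 0.975), also overlapping. CDKN1C (ENSG00000129757), p57, stood at 1.58 and 2.697 against 2.99 and 2.72 CPM (edgeR q = 0.452) and CDKN2A† (ENSG00000147889), the p16 locus, at 24.5 and 15.01 against 14.8 and 16.04 CPM (edgeR q = 0.356). No test passed for these 4, and the signs of CDKN1A, CDKN1B and CDKN2A turned under some alternatives, so none is given a direction. CDKN2B (ENSG00000147883), p15, was called higher, at 50.1 and 39.6 against 19.5 and 20.1 CPM (1.18 ± 0.27, edgeR q = 0.0146), a call that ended without Dox- Repeat 1, IR- 1 or IR- 2 (edgeR q = 0.0747 to 0.0886). CDKN2C (ENSG00000123080), p18, itself an E2F target, was lower, at 1.102 and 1.24 against 8.36 and 8.78 CPM (-2.87 ± 0.28, edgeR q = 2.16e-05). MYC (ENSG00000136997), a driver of growth, stood at 31.2 and 25.2 against 22.1 and 24.7 CPM (0.27 ± 0.25, edgeR q = 0.563) and did not pass.

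Genes that restrain growth were higher in Dox- Repeat in part. Of 24 such genes 9 were higher and 0 lower, 37.5% against 5.38% (median 0.59, 5 to 11 with 1 library left out, fewest without IR- 2). The translation inhibitor PDCD4† (ENSG00000150593) stood at 102 and 113 against 38.9 and 37.2 CPM (1.497 ± 0.19, edgeR q = 0.000215), the PI3K inhibitor PIK3IP1† (ENSG00000100100) at 83.6 and 104 against 40.9 and 44.6 CPM (1.14 ± 0.19), and the unconventional cyclin CCNG2 (ENSG00000138764) at 52.4 and 51.3 against 24.9 and 24.6 CPM (1.07 ± 0.18). In all 3 the groups lay apart. Of 29 p53 targets 9 were higher and 0 lower, but only 2 without IR- 1 and 2 without IR- 2. TP53INP1 (ENSG00000164938) (1.29 ± 0.23, edgeR q = 0.00238), a stress gene, and MDM2† (ENSG00000135679), which restrains p53 (1.09 ± 0.22, edgeR q = 0.005496), were among them, MDM2 not without IR- 2 (edgeR q = 0.0596). BTG2 belongs to both lists, so each count of higher genes includes a gene put forward as a marker of the difference. Without IR- 1 its log2 fold change was 1.025 and its call ended.

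Immediate-early genes, the first to answer serum, had 8 higher and 3 lower of 28, 28.6% and 10.7% beside 5.38% and 4.13%. Without IR- 1 there were 5 higher and 1 lower, without IR- 2 5 and 0, and without Dox- Repeat 2 9 and 0. FOS (ENSG00000170345), a subunit of AP-1, stood at 27.3 CPM in Dox- Repeat 1 and 9.005 CPM in Dox- Repeat 2, against 0.867 and 0.603 CPM in IR- (4.62 ± 0.82, edgeR q = 0.00255). Its 2 values in Dox- Repeat were far apart, but both lay above IR-, and Proliferating Control stood at 6.43 and 7.74 CPM. The orphan nuclear receptors NR4A2 (ENSG00000153234), at 12.02 and 12.9 against 1.97 and 1.79 CPM (2.73 ± 0.20, edgeR q = 4.50e-06), and NR4A3 (ENSG00000119508) (3.4997 ± 0.45, 35 and 16 reads in IR-) were higher, as was DUSP6† (ENSG00000139318), a brake on ERK (1.18 ± 0.20). Lower were SRF (ENSG00000112658), the serum response factor (-0.85 ± 0.21), the AP-1 subunit FOSL1 (ENSG00000175592) (-0.77 ± 0.22) and IER5 (ENSG00000162783) (-0.79 ± 0.21), each of which lost its call without 3 or 4 of the 4 libraries in turn (edgeR q = 0.0651 to 0.412).

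Genes of resting tissue fibroblasts were higher in Dox- Repeat, 14 of 32 with 0 lower (median 1.20, 10 to 15 higher with 1 library left out). The prostaglandin D synthase PTGDS† (ENSG00000107317) stood at 8.22 and 11.3 against 0.754 and 0.725 CPM (3.72 ± 0.32, edgeR q = 1.06e-05). The extracellular peroxidase GPX3 (ENSG00000211445) stood at 16.6 and 22.03 against 3.96 and 4.09 CPM (2.26 ± 0.22, edgeR q = 2.62e-05), and the surface protease DPP4† (ENSG00000197635) at 359 and 483 against 89.6 and 77.05 CPM (2.34 ± 0.25, edgeR q = 6.15e-05). The groups did not overlap in any of the 3. The higher members of this list include ADH1B, a gene put forward as a marker of the difference between these controls.

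Matrix genes split. Of 31, 3 were higher and 6 lower, 9.68% and 19.4% beside 5.38% and 4.13%, and the median changed sign among the alternatives. Higher calls numbered 5 without Dox- Repeat 1 and 1 without each other library, and lower calls 3 without IR- 2 and 4 without Dox- Repeat 1. The fibril-associated COL14A1 (ENSG00000187955), typical of quiet interstitial matrix, stood at 27.7 and 40.3 against 5.15 and 4.65 CPM (2.80 ± 0.33, edgeR q = 0.000121). Biglycan, BGN (ENSG00000182492), a small proteoglycan, stood at 12.1 and 17.8 against 54.9 and 77.3 CPM (-2.14 ± 0.25, edgeR q = 0.000127), and COL5A1 (ENSG00000130635) (-1.13 ± 0.19) and COL4A2† (ENSG00000134871) (-1.25 ± 0.23), collagen chains, were lower with it. COL1A1 (ENSG00000108821), the main chain of type I collagen, stood at 277 and 293 against 545 and 756 CPM (-1.19 ± 0.25), a call lost without IR- 2 (edgeR q = 0.101), while FN1 (ENSG00000115414), fibronectin, at 6856 and 8026 against 2978 and 3250.4 CPM (1.26 ± 0.31), lost its call without Dox- Repeat 2, IR- 1 or IR- 2 (edgeR q = 0.0616 to 0.113).

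Contractile genes had 7 of 15 lower in Dox- Repeat and 0 higher (median -1.01, 2 to 6 lower with 1 library left out, 2 without IR- 2 and 3 without Dox- Repeat 1). With all libraries, 46.7% of the list was lower, beside 4.13% of all genes. MYOCD† (ENSG00000141052), coactivator of SRF, stood at 0.789 and 0.877 against 3.26 and 3.59 CPM (-2.04 ± 0.36, edgeR q = 0.00267) and the calponin CNN2† (ENSG00000064666) at 92.9 and 108 against 242 and 325 CPM (-1.499 ± 0.28, edgeR q = 0.00407). ACTA2† (ENSG00000107796), smooth muscle actin, stood at 172 and 256 against 435 and 469.9 CPM (-1.08 ± 0.23), and its call ended without Dox- Repeat 1 or IR- 2 (edgeR q = 0.0874 and 0.0662). Of 10 markers of smooth muscle and pericytes, some of them also on the contractile list, 4 were lower, and fewer with any 1 library left out. Their summed level was 359 and 405 CPM in Dox- Repeat and 641 and 701 CPM in IR-. The contractile list summed to 9568 and 6386 CPM in Dox- Repeat and 8424 and 9025 CPM in IR-, so its sum overlapped between the groups. The defining smooth muscle gene MYH11† (ENSG00000133392) was at 6.07 and 6.43 against 7.78 and 9.17 CPM and did not pass (edgeR q = 0.221). The part of such cells in the result was not tested. YAP targets, genes of spread cells under tension, had 7 of 22 lower and 0 higher (median -0.53, 4 to 6 with 1 library left out, 4 without Dox- Repeat 2 and without IR- 2). With all libraries, 31.8% of the YAP targets were lower, beside 4.13%. IGFBP3 (ENSG00000146674), which binds insulin-like growth factors, stood at 13.9 and 29.1 against 246 and 269.8 CPM (-3.58 ± 0.33, edgeR q = 1.71e-05). The receptor tyrosine kinase AXL† (ENSG00000167601) stood at 114 and 157 against 491 and 602 CPM (-2.02 ± 0.20, edgeR q = 2.48e-05), and the kinase NUAK2 (ENSG00000163545) at 2.63 and 4.18 against 8.02 and 11.7 CPM (-1.53 ± 0.26).

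Interferon-stimulated genes were higher in Dox- Repeat, 16 of 28 with 0 lower, 57.1% against 5.38% (median 1.43, 12 to 16 with 1 library left out). Their summed level was 674 and 602 CPM against 228 and 223 CPM in IR-. OAS1† (ENSG00000089127), which senses double-stranded RNA, stood at 1.08 and 0.854 against 0.0462 and 0.0287 CPM (4.65 ± 0.41, edgeR q = 1.18e-05), with only 16 and 8 reads in IR-. The translation inhibitor IFIT2† (ENSG00000119922) stood at 65.5 and 49.2 against 6.21 and 7.12 CPM (3.11 ± 0.33, edgeR q = 4.45e-05) and IFI6 (ENSG00000126709) at 34.3 and 25.5 against 6.77 and 6.48 CPM (2.17 ± 0.23, edgeR q = 5.48e-05). Both Dox- Repeat libraries lay above both IR- libraries for each.

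The inflammatory secretome had 11 of 23 higher and 0 lower (median 1.55, 10 with 1 library left out). The higher share with all libraries was 47.8%, beside 5.38%. Superoxide dismutase, SOD2† (ENSG00000112096), a target of NF-kB, stood at 264 and 206 against 38.2 and 38.7 CPM (2.61 ± 0.26, edgeR q = 2.70e-05), and the cytokine LIF† (ENSG00000128342) at 72.6 and 96.1 against 21.9 and 26.97 CPM (1.79 ± 0.23, edgeR q = 0.000228). The chemokines CXCL8 (ENSG00000169429), interleukin 8, at 1.16 and 1.18 against 0.124 and 0.0287 CPM (3.89 ± 0.72, edgeR q = 0.00336), and CXCL3 (ENSG00000163734) (4.60 ± 0.64) were low in all 6 controls, and CXCL3 rested on 8 and 4 reads in IR-. The protease and growth factor list fell on both sides, 6 higher and 5 lower of 28, with 3 higher without IR- 1 and 3 lower without IR- 2. Its shares with all libraries were 21.4% higher and 17.9% lower, beside 5.38% and 4.13%. The plasminogen activator PLAT (ENSG00000104368) stood at 351 and 456 against 53.97 and 53.5 CPM (2.91 ± 0.37, edgeR q = 0.000214), and the ligands FGF7 (ENSG00000140285) (1.54 ± 0.28) and AREG (ENSG00000109321) (2.12 ± 0.27) were higher too. The matrix protease MMP10 (ENSG00000166670) (-2.65 ± 0.40) and IGF2† (ENSG00000167244) (-3.86 ± 0.37), a growth factor whose exons are shared with a read-through gene, were lower.

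Lysosome genes had 14 of 25 higher and 1 lower (median 0.98, 8 to 14 with 1 library left out, fewest without IR- 1). These are 56% and 4%, beside 5.38% and 4.13% of all genes, so the lower share lay at the background. The autophagy receptor SQSTM1† (ENSG00000161011) stood at 1447 and 1229 against 344 and 419.7 CPM (1.81 ± 0.23, edgeR q = 0.000221), the cholesterol carrier NPC2† (ENSG00000119655) at 316 and 265 against 95.3 and 91.5 CPM (1.64 ± 0.23), and cathepsin K, CTSK (ENSG00000143387), at 473 and 687 against 146 and 144 CPM (2.00 ± 0.29). The exception was TFEB (ENSG00000112561), an activator of lysosome genes, at 0.444 and 0.347 against 1.31 and 0.7503 CPM (-1.38 ± 0.41, edgeR q = 0.0461), which lost its call with any 1 library left out (edgeR q = 0.0651 to 0.361). Glycolysis and hypoxia genes had 5 lower and 1 higher of 27, with 1 lower without IR- 2, 2 without Dox- Repeat 1 and 3 without IR- 1. With all libraries, 18.5% of these 27 were lower, beside 4.13%, and 3.70% higher, below the 5.38% of all genes. Lactate dehydrogenase A, LDHA (ENSG00000134333), stood at 398 and 491 against 1376 and 1377 CPM (-1.63 ± 0.17, edgeR q = 4.42e-05) and hexokinase 2, HK2† (ENSG00000159399), the reverse at 41.9 and 37.7 against 11.6 and 13.3 CPM (1.68 ± 0.24, edgeR q = 0.000541).

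In the remaining lists the counts are small, and are to be read beside the background of 5.38% higher and 4.13% lower. None of 30 cholesterol and fatty-acid genes was called in either direction by edgeR (median -0.02, 9 at an unadjusted p below 0.05, 4 by DESeq2). Of 27 ribosome biogenesis genes 1 was higher and 1 lower, 3.70% each, near the background. The list of lung mesenchyme identity had 1 higher and 2 lower of 21 (4.76% and 9.52%). The circadian clock had 1 and 2 of 15 (6.67% and 13.3%), and that of ATF4 and the unfolded-protein response 4 and 2 of 26 (15.4% and 7.69%). Called in the last were the amino acid transporter subunit SLC7A5† (ENSG00000103257) at 7.65 and 11.1 against 36.7 and 46.8 CPM (-2.15 ± 0.29, edgeR q = 0.000329) and the stress factor DDIT3† (ENSG00000175197) (1.49 ± 0.27). The lung mesenchyme factors TBX4 (ENSG00000121075) (-1.11 ± 0.28, edgeR q = 0.175 without Dox- Repeat 1, 0.06096 without IR- 1, 0.135 without IR- 2) and TCF21† (ENSG00000118526) (0.95 ± 0.20, edgeR q = 0.0721 without IR- 1, 0.0805 without IR- 2) and the clock genes BHLHE41† (ENSG00000123095) (2.15 ± 0.49, edgeR q = 0.08204 without Dox- Repeat 1, 0.111 without IR- 1) and TEF (ENSG00000167074) (-0.96 ± 0.24, edgeR q = 0.0893 to 0.128 with any 1 of the 4 libraries left out) each lost their call without 1 or more libraries. Mitochondrially encoded genes summed to 21221 and 34196 CPM in Dox- Repeat and 20869 and 21775 CPM in IR-, so Dox- Repeat 1 lay between the IR- libraries. The mitochondrial share of counts, ribosomal RNA included, was larger in IR-. Fewer genes were called higher with any 1 library left out, and without Dox- Repeat 2 some were called lower. With no library left out, 4 of 13 were higher (30.8%) and 0 lower. MT-ND4† (ENSG00000198886) (0.93 ± 0.26, edgeR q = 0.0725 to 0.165 with any 1 of the 4 libraries left out) and MT-ND3 (ENSG00000198840) (1.13 ± 0.24, edgeR q = 0.0752 without Dox- Repeat 1, 0.0819 without IR- 2), subunits of complex I, were among them. Of 15 fibroblast markers 1 was higher, the peptidase MME† (ENSG00000196549) (1.56 ± 0.29), and 1 lower, COL1A1. Of the leukocyte and epithelial markers none was called by edgeR (3 and 0 at an unadjusted p below 0.05, and 3 and 0 by DESeq2). Of 10 endothelial markers 1 was higher, TEK (1.00 ± 0.21, edgeR q = 0.00811), a call that ended without Dox- Repeat 2, IR- 1 or IR- 2 (edgeR q = 0.0672 to 0.0757). Of 8 adipocyte markers 1 was higher, the fatty acid carrier FABP4 (ENSG00000170323), at 3.61 and 1.27 against 0.821 and 0.70003 CPM (1.68 ± 0.49, edgeR q = 0.0454), a call that ended without Dox- Repeat 1, IR- 1 or IR- 2 (edgeR q = 0.131 to 0.444) and with DESeq2's size factors (edgeR q = 0.0509).

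By the rule for naming genes, listed or not, the highest fold change was that of MCTP1 (ENSG00000175471), a calcium-binding membrane protein, at 13.3 and 15.8 against 0.532 and 0.4595 CPM (4.87 ± 0.48, edgeR q = 2.62e-05). Next came FOS, LINC02154 (ENSG00000235385), a long noncoding RNA (4.53 ± 0.61, 14 and 0 reads in IR-), CLCA2 (ENSG00000137975) (4.49 ± 0.46, 31 and 7 reads in IR-), CXCL8, and GPNMB (ENSG00000136235), a glycoprotein of lysosomes and melanosomes, at 339.5 and 306 against 22.99 and 22.95 CPM (3.81 ± 0.45, edgeR q = 0.000127). LINC02154 stood at only 0.391 and 0.637 against 0.0405 and 0 CPM, and CLCA2 at 0.962 and 1.71 against 0.0896 and 0.0251 CPM. The average level that the rule asks for was taken over 12 libraries, treated cells included. In Dox+ Repeat LINC02154 stood at 7.26 and 4.45 CPM and CLCA2 at 18.3 and 10.95 CPM. In IR+ they stood at 10.5 and 9.16 CPM and at 11.5 and 8.99 CPM. The lowest were MYBL2, CDC20, TK1, IGFBP3, NEK2 and CDCA8.

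Proliferating Control stood nearer to Dox- Repeat than to IR-, with a Pearson r of log2 CPM of 0.967 to 0.994 to the former and 0.931 to 0.948 to the latter. Between Dox- Repeat and Proliferating Control edgeR called 0 of 33612 genes, 0% in each direction, with 1880 higher and 1489 lower at an unadjusted p below 0.05 and a smallest adjusted p of 0.0586, while DESeq2 called 114 and 17. This does not show that the 2 were alike, and without Dox- Repeat 2, the library nearer to Proliferating Control, 320 genes were called higher and 153 lower. Mitosis genes had a median of -0.35 and replication genes of -0.07 in this comparison. Between IR- and Proliferating Control 2891 genes were higher and 3530 lower, 8.6% and 10.5%, or 19.1% in all. With 1 of these 4 libraries left out 742 to 1583 were higher, fewest without Proliferating Control 2, and 1228 to 1637 lower, fewest without IR- 2. The 2 comparisons with Proliferating Control share its libraries, so each is given by its own values.

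The same IR- libraries enter this comparison, so its cell-cycle values are a description too. In IR- over Proliferating Control, 43 of 46 mitosis genes were higher and 0 lower (median 2.09, 33 to 38 higher with 1 library left out). Of 40 replication genes 24 were higher and 0 lower (median 0.99, 12 to 15 higher with any 1 of the 4 libraries left out). Interferon genes had 19 of 28 lower and 0 higher (median -1.44, 13 to 15 lower with 1 left out), and 16 of 25 lysosome genes were lower and 1 higher (median -0.97). With 1 library left out 9 to 14 lysosome genes were lower, 9 without Proliferating Control 1 and 10 without IR- 1, and 0 higher. FOXM1 stood at 3.91 and 3.61 CPM in Proliferating Control (3.42 ± 0.23 for IR- over it), CCNB1 at 17.2 and 19.2 CPM (2.44 ± 0.20) and TK1 at 5.13 and 5.39 CPM (3.69 ± 0.21), levels near those of Dox- Repeat. The 6 highest genes by rule were MYBL2 (4.00), TK1, CDC20 (3.68), MTRNR2L10 (ENSG00000256045) (3.64), the kinesin KIF18B (ENSG00000186185) (3.44) and BIRC5 (3.23). MTRNR2L10 resembles mitochondrial ribosomal RNA, so its reads cannot be assigned with certainty. It passed the rule because 12.7% of its sequence was shared with other genes, below the limit of 50%. That ribosomal RNA, MT-RNR2, held 3.19% and 3.67% of counts in IR- and 0.645% and 1.37% in Proliferating Control. The 6 lowest were MCTP1 (-4.92), LINC02154 (-4.72), CLCA2 (-4.69), the channel protein CLIC2 (ENSG00000155962) (-4.28), GPNMB (-4.10) and CXCL8 (-3.98). MCM2 passed here (1.09 ± 0.27, edgeR q = 0.0131), but not without IR- 2 or Proliferating Control 2 (edgeR q = 0.0787 and 0.149). CCND1 was lower in IR- (-0.82 ± 0.19, edgeR q = 0.0102), but lost its call with any 1 of these 4 libraries left out (edgeR q = 0.061 to 0.102). CDK1 (1.70 ± 0.49) likewise lost its call with any 1 left out (edgeR q = 0.0737 to 0.115).

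Each control is the baseline of its own treated cells, and the controls lay at different distances from them. The 46 mitosis genes summed to 288 and 324 CPM in Dox+ Repeat, which had 2 µg/mL doxorubicin for 24 h at doubling level 25. They summed to 305 and 233 CPM in IR+, given 10 Gy of ionizing radiation at level 25, and to 234 and 185 CPM in Replicative Exhaustion, cells at level 53 to 55 set against Proliferating Control. The mean sum of IR- was 8.96 times that of IR+, that of Proliferating Control 3.15 times that of Replicative Exhaustion and that of Dox- Repeat 1.62 times that of Dox+ Repeat. For interferon genes the sums were 2315 and 1624, 2218 and 2085 and 2216 and 1429 CPM in the treated or late-passage groups, and the ratios of control to these were 0.324 for doxorubicin, 0.105 for irradiation and 0.359 for late passage. Lysosome genes summed to 6955 and 6567 CPM in Dox- Repeat and 7510.1 and 5451 CPM in Dox+ Repeat, and to 2953 and 3195 CPM in IR- and 6554 and 7693 CPM in IR+, so the sum of IR- was 0.431 times that of IR+ while Dox- Repeat and Dox+ Repeat stood at 1.04. The 3 treated or late-passage groups lay closer to each other in these sums than their controls did for mitosis, where IR- was 4.87 times Dox- Repeat. These ratios are a description, with no test.

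**Figure D4:**
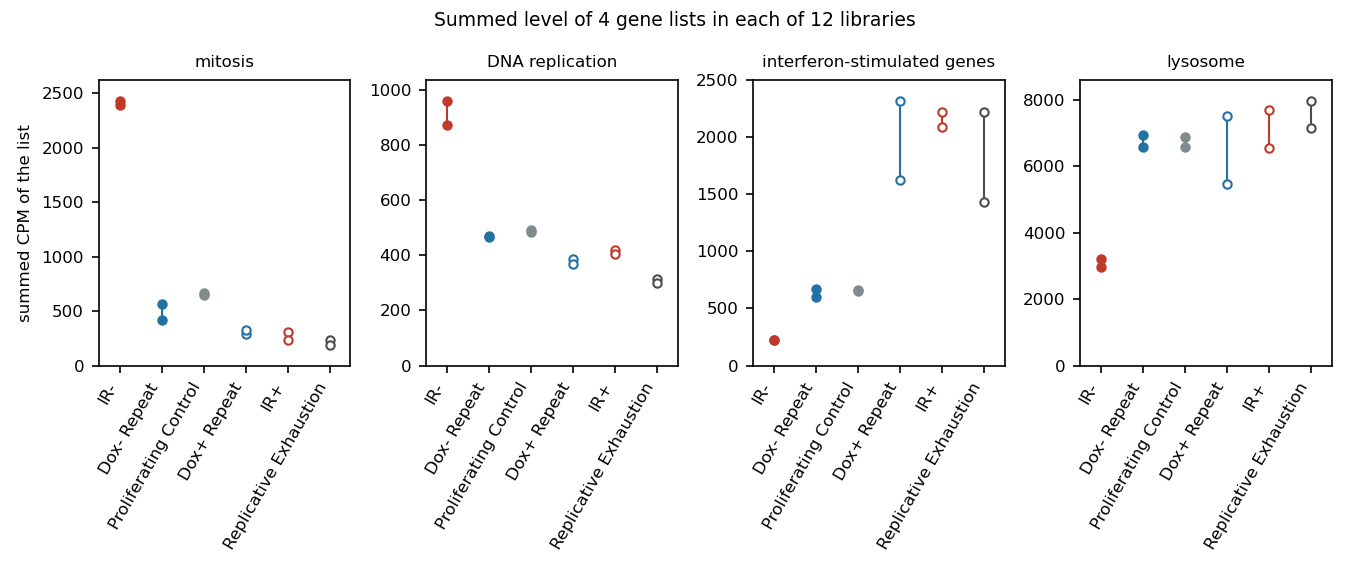
Summed CPM of the mitosis, DNA replication, interferon-stimulated and lysosome lists in each of 12 libraries, with filled points for the 3 control groups, open points for the treated or late-passage groups and a line joining 2 libraries of a group. IR- is the highest group for mitosis (2392 and 2427 CPM) and the lowest for interferon-stimulated and lysosome genes.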

How the data were processed

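Gene counts of 37 bulk RNA libraries were used. Per the labels' protocols, RNA was taken up in TriPure, depleted of ribosomal RNA, turned into cDNA with an Ovation kit and made into paired-end Illumina libraries. The authors deposited raw counts per Ensembl gene, and per the submitters' processing notes the tools were bcl2fastq, cutadapt, STAR 2.4 and featureCounts on hg19. The strand setting of the counting is not given in the sources used here, so overlapping genes are marked as uncertain (of 121 named genes, 44 overlap a gene on the opposite strand, 15 on the same strand, and 2 share sequence with another gene).

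Libraries were grouped by label. The counts of 12 libraries (6 groups of 2: the 3 controls and their treated or late-passage cells) were fitted together with edgeR 4.0.16 in R 4.3.3, with TMM scaling, edgeR's filter on low counts, the quasi-likelihood test and Benjamini-Hochberg adjustment over all genes tested, called at 0.05. Raw totals of the controls were 205854972 to 339671357 counts, and CPM divides by TMM-scaled totals of 196482152 to 345980976. For precision, 2 libraries a group limit the precision more than this depth does. Alternatives were DESeq2 1.42.0, its size factors, no filter, other sets of libraries, mitochondrial genes left out, a replicate term and each library left out.

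The members and gene lists were chosen with earlier results of these data known, so lists are described by counts and medians. Named genes were a followed set of 21 and the 6 highest and 6 lowest called genes. The latter had an average log2 CPM of at least 1 over the 12 libraries, a symbol and no overlap of groups. They also had no exons overlapping another gene and under 50% shared sequence. Up to 3 called members per list and direction with the smallest adjusted p were named too. Other members stand by value only where a whole list needs them. Of 57773 identifiers 51996 matched the gene name table, and 31 of 710 listed symbols had no match and were not analysed here. In simulated data the fit recovered 41% of genes changed 2-fold and 94% of those changed 4-fold between Dox- Repeat and IR- (100 each of 32166 genes), 0 in the wrong direction, and 5.59% of its calls were unchanged genes. The changed genes were drawn only from those with a mean above 1 CPM. Far fewer genes were changed than were called in the data, so these rates need not hold for all genes tested.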

Additional observations from a re-analysis of the deposited data

How the results depend on the processing

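Of the 112 called genes among the 121 named for Dox- Repeat against IR-, 81 kept their call in every alternative, 31 lost it without some library and 6 in another setting. The genes called higher and lower between Dox- Repeat and IR- (1809 and 1387) became 3293 and 3113 with only the 3 control groups fitted, 4445 and 4371 with all 37 libraries, 1910 and 2333 with only these 2 groups, and 2547 and 2646 with DESeq2's Wald test. Leaving out 1 library gave 664 to 1376 higher and 428 to 1013 lower. Between Dox- Repeat and Proliferating Control (0 and 0) the counts were 348 and 70 with no filter on low counts, 1520 and 841 with all 37 libraries, 114 and 17 with DESeq2, and 0 to 320 and 0 to 153 with 1 library left out. Between IR- and Proliferating Control (2891 and 3530) they were 7427 and 6512 with only these 2 groups, 5360 and 4821 with the 3 control groups, 6332 and 6155 with all 37 libraries, 4395 and 4196 with DESeq2, and 742 to 1583 and 1228 to 1637 with 1 library left out. Without a library fewer samples enter the fit; for the other alternatives the cause was not tested.

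The labels share replicate numbers between groups but do not say that a number marks a shared day or batch, and deviations of same-numbered libraries correlated at -0.172 for Dox- Repeat and IR-, 0.136 for Dox- Repeat and Proliferating Control and -0.0809 for IR- and Proliferating Control. With the replicate number as a block, 1797 genes were higher and 1396 lower between Dox- Repeat and IR-, 0 and 0 between Dox- Repeat and Proliferating Control, and 2785 and 3446 between IR- and Proliferating Control. A block with crossed numbers, chosen after seeing the data, called 2027 higher and 2391 lower.

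Among the named genes, signs turned only for CDK inhibitors that did not pass. Medians near 0 of the matrix, cholesterol, ribosome biogenesis, ATF4, lung mesenchyme and fibroblast marker lists, and that of the adipocyte markers, also changed sign between Dox- Repeat and IR- in 1 or 2 alternatives each. Between Dox- Repeat and IR- the log2 change of CDKN1A ran from -0.23 to 0.0048 with 1 library left out, that of CDKN1B from -0.18 to 0.14 (0.00072 with mitochondrial genes left out, 0.03 without IR- 2) and that of CDKN2A from -0.030 to 0.68. Between IR- and Proliferating Control CDKN1B ran from -0.12 to 0.019 (0.0066 with only these 2 groups, 0.0029 with the 3 control groups) and CDKN1C from -0.34 to 0.064.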

Other observations

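Some genes outside the lists differed as much as those within them, and were picked after their values were seen. A2M† (ENSG00000175899), the protease trap alpha-2-macroglobulin, stood at 219 and 277 CPM in Dox- Repeat, 254 and 233 CPM in Proliferating Control and 9.94 and 8.82 CPM in IR- (4.73 ± 0.31 for Dox- Repeat over IR-, edgeR q = 2.12e-06). AGT† (ENSG00000135744), angiotensinogen, stood at 4.71 and 4.22, 4.82 and 3.63 and 0.0983 and 0.0826 CPM in the same order (5.61 ± 0.47, edgeR q = 8.61e-06). HSD11B1 (ENSG00000117594), which produces active cortisol, stood at 2.51 and 2.59, 2.26 and 2.83 and 0.188 and 0.223 CPM (3.64 ± 0.29, edgeR q = 7.72e-06). In each of these genes the IR- libraries were the lowest of the 6 controls. FBXO32 (ENSG00000156804), a ubiquitin ligase subunit of muscle wasting, stood at 64.8 and 74.4, 72.6 and 73.4 and 6.06 and 5.24 CPM (3.62 ± 0.27, edgeR q = 5.33e-06). Others outside the lists were higher in IR-. HBE1† (ENSG00000213931) stood at 2.34 and 2.37, 2.02 and 1.79 and 30.9 and 30.7 CPM (-3.71 ± 0.23). GRPR† (ENSG00000126010) stood at 0.736 and 2.07, 1.72 and 1.31 and 14.8 and 15.4 CPM (-3.43 ± 0.54). The mitotic kinesin KIF20A† (ENSG00000112984), a member of the mitosis list, was higher in IR- too, at 7.57 and 17.4, 16.8 and 16.6 and 177 and 195 CPM (-3.90 ± 0.33). Its level in Dox- Repeat 1 lay below that in Dox- Repeat 2, as for most mitosis genes.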
